A study of Xenopus laevis with 11 samples.

Results

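The Dlx genes dlx3, dlx4, dlx5 and dlx6 of Xenopus laevis were described here by the accessible chromatin around them in animal caps of the late blastula. Each gene has an L and an S homeolog, since X. laevis is an allotetraploid whose L and S subgenomes come from different parental species. All 8 copies were found in the RefSeq gene table of the v10.1 assembly, among 34461 protein-coding genes on the 18 chromosomes. Neighbouring Dlx genes were taken as 1 locus, which gives 4 loci: dlx5/dlx6 on 6L and on 6S, and dlx3/dlx4 on 9_10L and on 9_10S. An accessible region (peak) belonged to a locus when its summit, the base of highest coverage, lay within 50 kb of the outermost gene ends, and 45 of the 58223 peaks did so.

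ATAC-seq, in which the Tn5 transposase inserts adapters into DNA that nucleosomes leave free, was performed on animal caps, the explanted ectoderm of the blastula. The animals were of the Xla.NXR-WTNXR strain and wild type, with no treatment, and 2 caps entered each reaction. Of the 11 libraries, 5 came from stage 8 and 6 from stage 9. The values below come from 1 list of peaks that the authors called on the 6 stage 9 libraries (4 replicates) pooled, so no value has a replicate error, no comparison between samples was possible and no p-value is given.

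Dlx proteins are homeodomain transcription factors related to Distal-less, the fly gene needed to form the ends of limbs. In vertebrates their genes stand in neighbouring pairs that face each other, and in mammals and fish the members of a pair share enhancers, some of which lie between them. In frog embryos dlx3 and dlx5 act in the non-neural ectoderm and at the border of the neural plate, where BMP signals turn them on.

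The list was shallow. The median peak of all 58223 had a fold enrichment (coverage at the summit over local background) of 5.51 and 9 fragments at its summit (95% Poisson interval 4.12 to 17.1), and no peak had fewer than 5 fragments. A gene without a peak may therefore have accessibility below what this depth can detect. Reads of low mapping quality were removed as well, which can also leave a gene without a peak. Intervals cover counting error only. PCR copies were not told apart by molecular identifiers, and some replicates entered the pool both as a library and as its size-selected version. The intervals may therefore be too narrow. Marker genes of the animal cap ectoderm, such as epcam, cdh1 and gata2, had an end peak (summit no more than 1 kb from a gene end) at 14 of 14 copies, while muscle, blood and liver genes had one at 0 of 12. Vegetal endoderm genes, which mark cells outside the cap, had one at 10 of 14 copies. Among all protein-coding genes 47.8% had one. A longer list of ectoderm factors, described below, had one at 28 of 38 copies, so the 14 of 14 depends on the genes picked. The longer list shares gata2, tfap2a, foxi1 and grhl3 with the ectoderm markers, so it is not a separate check. Its share, 73.7%, was close to the 71.4% of the endoderm genes.

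The Dlx loci differed widely in accessibility. dlx5/dlx6 held 39 of the 45 peaks (86.7%, 95% Wilson interval 73.8 to 93.7) and dlx3/dlx4 the other 6. On dlx5/dlx6 the copies had nearly equal numbers, 19 on L and 20 on S. On dlx3/dlx4 there was 1 peak on L and there were 5 on S, of which only 2 had a Dlx gene as their nearest gene. Peaks of 1 locus are not independent of each other, so these intervals are too narrow.

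dlx5 and dlx6 were surrounded by dense accessible chromatin on both subgenomes. The L locus spans 20273 bp, with dlx6.L at 6L:33867560 to 33872632 and dlx5.L at 6L:33882698 to 33887832. The S locus spans 25618 bp, with dlx6.S at 6S:26913569 to 26920226 and dlx5.S at 6S:26933539 to 26939186. With 50 kb on each side, the density was 158 peaks per Mb on L and 159.2 on S, where the chromosomes as a whole carried 19.4 (6L) and 17.6 (6S). At the density of its chromosome, a window of this size would hold 2.34 peaks on L and 2.204 on S.

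**Figure D1:**
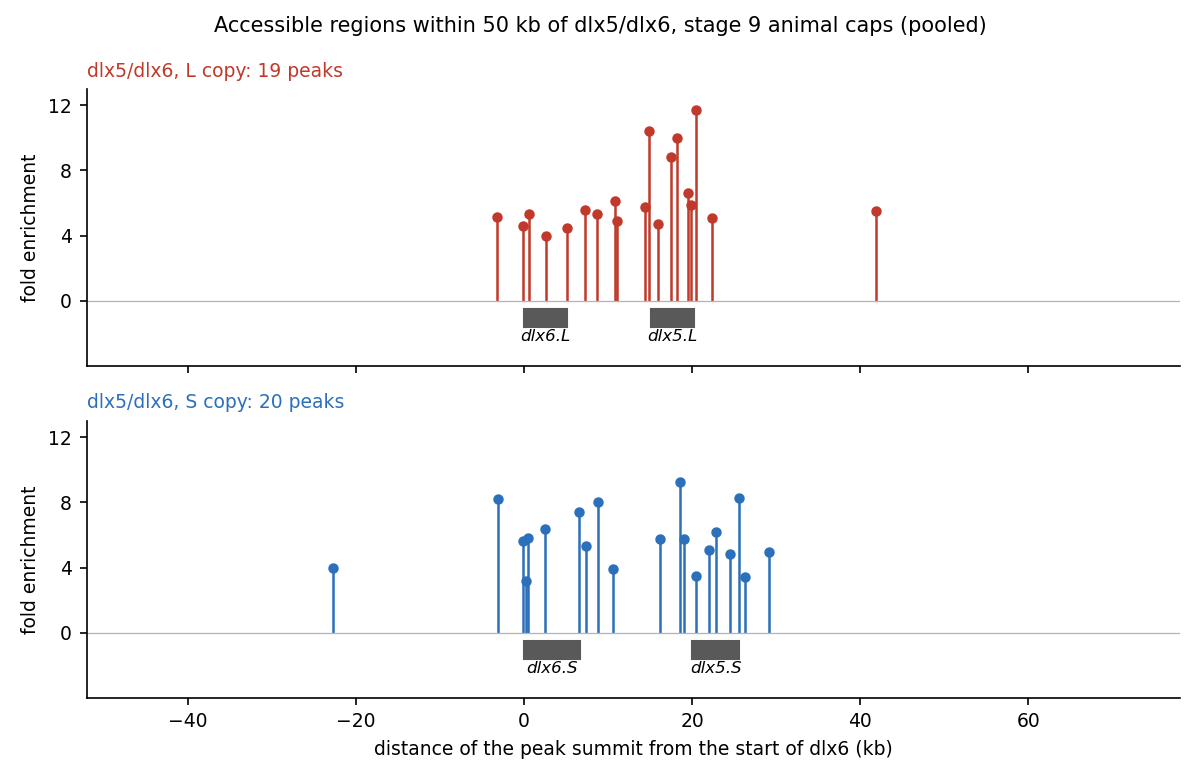
Fold enrichment of each peak (vertical axis) against the distance of its summit from the start of dlx6 in kb (horizontal axis), for the L copy (red, 19 peaks) and the S copy (blue, 20 peaks) of dlx5/dlx6, with genes as grey bars. The peaks sit in and next to the genes, and the highest are at 11.7-fold on L and 9.26-fold on S.

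The peaks formed an island. Of the 39 peaks, 37 lay in the gene span or within 10 kb of it, and the exceptions were 21604 bp beyond dlx5.L and 22662 bp beyond dlx6.S. Outside the 50 kb windows the nearest peaks were far off, 168 kb before and 104 kb after the L locus, and 191 kb before and 279.8 kb after the S locus. Genes were also sparse there. The nearest protein-coding genes were LOC108718846 at 168041 bp and LOC121394450 at 197413 bp on L, and sem1.S, which encodes a small subunit of the proteasome lid, at 164442 bp and LOC108719910 at 51696 bp on S. Consequently every peak of both windows had dlx5 or dlx6 as its nearest annotated gene.

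Within the island the peaks were spread over genes and spacer alike. On L, 7 lay between the genes, 5 inside dlx5.L, 2 inside dlx6.L, 3 beyond dlx5.L and 2 beyond dlx6.L. On S, 6 lay between the genes, 5 inside dlx5.S, 4 inside dlx6.S, 2 beyond dlx5.S and 3 beyond dlx6.S. The spacer is longer on S, 13312 bp against 10065 bp on L. The median distance between neighbouring summits was 1488 bp on L and 1546 bp on S. Within 1 kb of an end of dlx5 or dlx6 there were 18 of the 39 peaks (46.2%, 31.6 to 61.4), near the 40.6% of all peaks that lie this close to either end of some protein-coding or lncRNA gene. The gene table carries neither strand nor exons, so start and end refer to coordinates, and whether a peak overlaps a promoter, exon, intron or UTR was not determined.

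By fold enrichment the highest peaks on L were at or in dlx5.L. On S the highest lay between the genes. The peaks at the outer end of dlx5.S (8.25-fold) and beyond dlx6.S (8.19-fold) were nearly equal, with 14 fragments each. At the outer end of dlx5.L, 151 bp past it, a 557 bp wide peak at 6L:33887614 to 33888170 reached 11.7-fold with 19 fragments (95% Poisson interval 11.4 to 29.7), a fold that 7.09% of all peaks reach. At the same end of dlx5.S, 94 bp inside it, an 861 bp wide peak at 6S:26938491 to 26939351 had 8.25-fold with 14 fragments (7.65 to 23.5). These intervals overlap and the pooled list has no replicate error, so the copies cannot be ranked here.

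At the inner end of dlx5, towards dlx6, each copy had a pair of peaks. The 10.4-fold peak at 6L:33882320 to 33882561 had the most fragments of any at the 4 loci, 26 (16.98 to 38.1), and lay 297 bp before dlx5.L. On S the peak at 6S:26931678 to 26932256, 1427 bp before dlx5.S, had 9.26-fold with 23 fragments (14.6 to 34.5). The weaker partner had 17 fragments on both subgenomes. It stood 496 bp before the stronger peak on L and 517 bp after it on S, so the order of strong and weak was opposite, although the intervals of strong and weak overlap on each copy.

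The rest of the spacer also held peaks on both subgenomes. In mouse and zebrafish, enhancers shared by Dlx5 and Dlx6 lie between the genes, and whether the peaks here match them was not tested. On L a peak 106 bp past dlx6.L had 4.48-fold with 13 fragments (6.92 to 22.2). It was followed at 2213 bp by one of 5.59-fold with 9 fragments and at 3670 bp by one of 5.30-fold with 8. Further on, 4334 bp and 4076 bp before dlx5.L, neighbouring peaks had 6.15-fold with 9 fragments and 4.92-fold with 7. On S the peaks 756 bp, 2148 bp and 3991 bp past dlx6.S had 5.34-fold with 10 fragments, 7.99-fold with 12 and 3.88-fold with 7. The last before the inner pair, 3757 bp from dlx5.S, had 5.76-fold with 10 fragments. Between it and the peak 3991 bp past dlx6.S, in the middle of the S spacer, no peak was called. The Poisson intervals of all these peaks overlap, and without replicate values the peaks were not ranked by their fragments. Summed over the whole spacer, with the inner pair included, the summits held 89 fragments on L and 79 on S.

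Inside dlx5.L a further pair of peaks had 8.83-fold with 14 fragments and 10.0-fold with 16 fragments, at 2336 bp from its start and 2109 bp from its end. Inside dlx5.S the peaks closest to these places, 2050 bp from its start and 2756 bp from its end, had 5.10-fold with 8 fragments and 6.17-fold with 15. Of the 7 peaks at the dlx5/dlx6 loci with a −log10 q (the false discovery rate of MACS2) of at least 10, 4 were on L, all at or in dlx5.L. The 3 on S lay beyond dlx6.S, between the genes and in dlx5.S. The share of 17.9% (8.98 to 32.7) was near the 20.4% of all peaks that pass this limit.

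The peaks at the ends of dlx6 had no more than 13 fragments. The 3 peaks within 1 kb of an end of dlx6.L had 4.48-fold to 5.34-fold with 8, 10 and 13 fragments. The 5 at dlx6.S had 3.20-fold to 7.38-fold with 9 to 11 fragments. Beyond the outer end of dlx6 each copy had a lone peak, 3188 bp from dlx6.L with 15 fragments (8.39 to 24.7) and 3058 bp from dlx6.S with 14 fragments (7.65 to 23.5). Despite similar fragment numbers their fold enrichment was 5.12 and 8.19, since the background was 2.12 fragments at the L peak and 0.833 at the S peak. The background is the higher of local and genome-wide control coverage.

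Across the whole locus the copies had similar numbers of peaks and of fragments, while the peaks covered 4034 bp on L and 4978 bp on S. Peaks and fragments of 1 locus are not independent, and places without a called peak add none. The intervals are therefore too narrow, and whether the copies differ was not tested. The summits summed to 223 fragments on L (194.7 to 254.3) and 219 on S (191 to 250). L had 48.7% of the peaks (33.9 to 63.8) and 50.5% of the fragments (45.8 to 55.1). Median fold enrichments were 5.53 for the L and 5.69 for the S peaks, both near the median of all peaks. Most single peaks were thus of ordinary strength, and 18 of the 39 had fewer than 10 fragments.

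**Figure D2:**
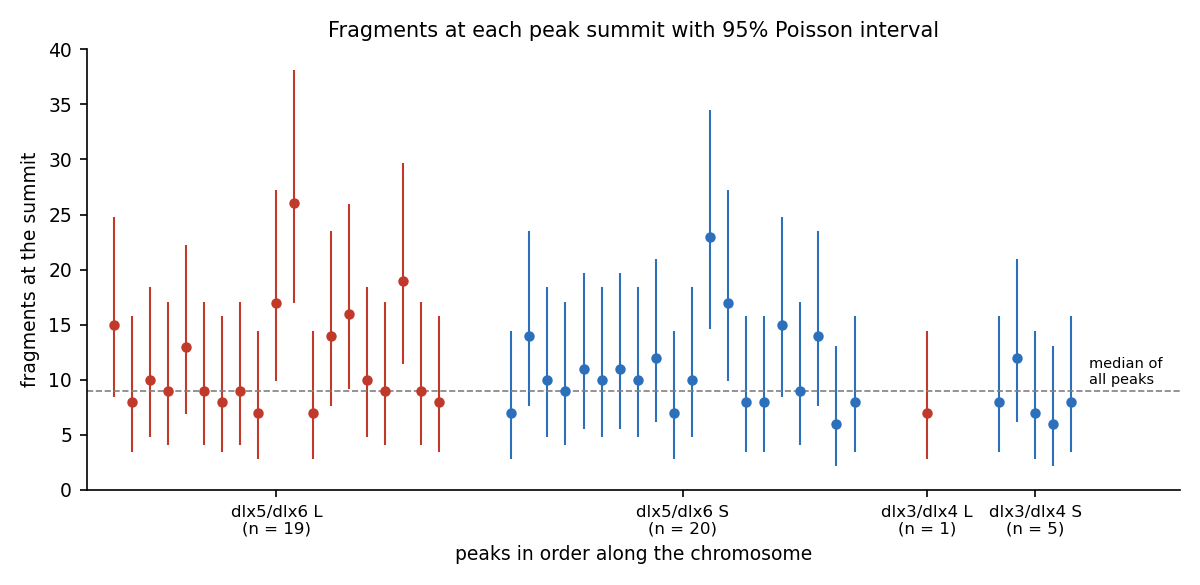
Fragments at the summit of each of the 45 peaks (vertical axis), in order along the chromosome within each locus (horizontal axis), for L (red) and S (blue) copies, with 95% Poisson intervals as bars and the median of all peaks, 9 fragments, as the dashed line. The highest points are the inner-end peaks of dlx5.L (26) and dlx5.S (23), and the 6 peaks of dlx3/dlx4 have 6 to 12.

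Positions were compared between the copies by the offset of each summit from its nearest gene end. With a tolerance of 250 bp, chosen after the positions were seen, 7 L peaks had an S partner (36.8% of the L peaks and 35% of the S peaks). The number was 3 at 100 bp and 12 at 500 bp, so it rests on the tolerance, and S peaks were spaced closely enough for offsets to match by position alone. The closest match was at the outer end of dlx6, 78 bp before dlx6.L and 57 bp before dlx6.S. The other matches were 641 bp and 543 bp inside this end, the lone peaks beyond it, the inner end of dlx6, 2213 bp and 2148 bp into the spacer, 793 bp and 910 bp before dlx5, and the outer end of dlx5. Inside dlx6, measured from its start, 1 more peak lay at 2595 bp on L and 2477 bp on S. Sequence alignment of the copies was not made here.

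dlx3 and dlx4 had few peaks in or near the genes, and none on L. dlx4.L lies at 9_10L:4779428 to 4792260 and dlx3.L at 9_10L:4802984 to 4811225. In this 31798 bp span, which includes both genes and the spacer, 0 peaks were called. The only peak of the L window lay 14745 bp past dlx3.L, at 9_10L:4825900 to 4825994, inside the neighbour itga3.L, which encodes an integrin, and had 4.92-fold with 7 fragments (2.81 to 14.4). The window held 7.59 peaks per Mb against 28.1 on all of 9_10L, where 3.71 peaks would be found at the chromosome's density. No peak was called from kat7.L to itga3.L over 118404 bp. Of the 3873 distances between neighbouring peaks on 9_10L, 303 (7.82%) equal or exceed this. The share counts distances, and long distances take up a larger share of the chromosome than of the count. On S no peak was called from kat7.S to dlx3.S over 99082 bp, which 333 of 2712 distances on 9_10S (12.3%) equal or exceed.

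**Figure D3:**
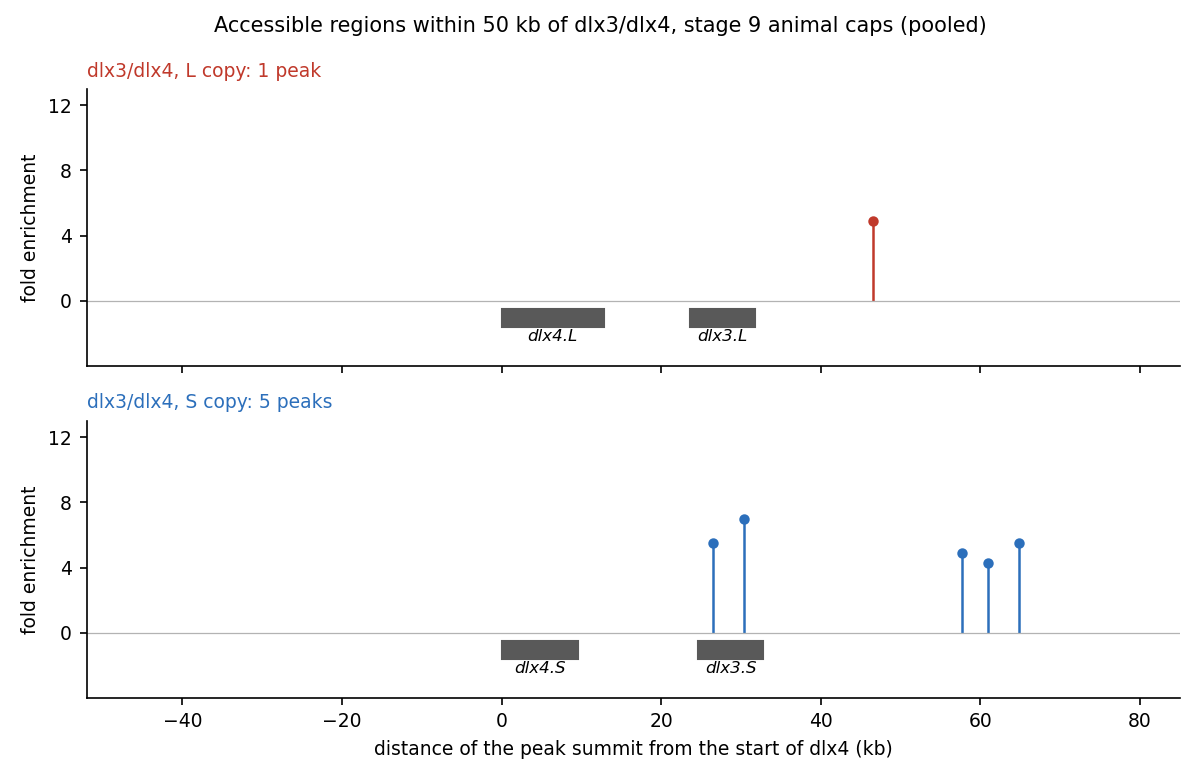
Fold enrichment of each peak (vertical axis, same scale as for dlx5/dlx6) against the distance of its summit from the start of dlx4 in kb (horizontal axis), for the L copy (red, 1 peak) and the S copy (blue, 5 peaks) of dlx3/dlx4, with genes as grey bars. Peaks inside a Dlx gene are seen only in dlx3.S (2), and the 1 on L and the other 3 on S lie beyond dlx3.

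dlx3.S was the exception. dlx4.S lies at 9_10S:4514556 to 4524157 and dlx3.S at 9_10S:4539235 to 4547354. The S window as a whole was not poor in peaks, with 37.6 per Mb against 23.1 on all of 9_10S, or 5 peaks where 3.07 would be found at the chromosome's density. Of these 5, 2 were inside dlx3.S and the others in a neighbour. The stronger, at 9_10S:4544792 to 4545152, had 6.98-fold with 12 fragments (6.20 to 21.0) and lay 2356 bp from the end of the gene. The other, at 9_10S:4541003 to 4541125 and 1846 bp from its start, had 5.53-fold with 8 fragments (3.45 to 15.8). The remaining 3 were inside itga3.S and had 6 to 8 fragments. The spacer, which holds the lncRNA gene LOC108702533 on S, had 0 peaks on both subgenomes. dlx4.S, like dlx4.L, had no peak in the gene, and its nearest was 16924 bp away in dlx3.S.

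The difference between dlx3.L and dlx3.S rests on these 2 peaks in the gene. No listed peak has fewer than 5 fragments, and the interval of the weaker dlx3.S peak reaches below that number while that of the stronger does not. Peaks are called against their background, so 5 fragments is not a calling limit. Both peaks are described because they were called, so their intervals cannot tell whether dlx3.L and dlx3.S differ. The share of L in the window was 1 of 6 peaks (16.7%, 3.005 to 56.4), an interval that includes equal numbers. By fragments it was 14.6% (7.25 to 27.2), where L had 7 (2.81 to 14.4) and S 41 (29.4 to 55.6). Only 20 of the S fragments were in dlx3.S, while the other 21 and all 7 on L were at peaks inside itga3. Fragments of the same peak are not independent, and places without a called peak add none. The interval by fragments is therefore too narrow and does not rank the Dlx copies. It covers counting error within called peaks only, and coverage outside peaks was not analysed here. Reads that fit L and S equally well were removed by the mapping filter, and whether this touches the dlx3 and dlx4 genes was not tested.

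The flanks of dlx3/dlx4 did have accessible regions. kat7, which encodes a histone acetyltransferase and is the nearest gene on one side, had 2 peaks within 1 kb of an end of kat7.L and 1 at kat7.S. The peak nearest to dlx4.S on that side, 72.6 kb away at kat7.S, had 16.6-fold with 26 fragments. The peak nearest to dlx4.L on that side, 71.9 kb away at kat7.L, had only 4.075-fold with 6 fragments. itga3, on the other side, had 0 at its ends on both subgenomes. Widening the window to 100 kb added 6 peaks on L and 4 on S, whose nearest genes were kat7, slc35b1, fzd2.S and LOC108700826, and none at dlx5/dlx6.

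Set among all protein-coding genes, dlx5 and dlx6 were in the upper tail of peak number and dlx3 and dlx4 were not. Within 10 kb of either gene end dlx5.L had 14 peaks, dlx5.S 11, dlx6.L 11 and dlx6.S 10, where the median gene had 1 and 1.17% of genes had at least 11. Many of these peaks were counted for both neighbours. dlx3.S had 2, and dlx3.L, dlx4.L and dlx4.S had 0, where 63.1% of genes had at least 1. Within 50 kb the counts were 19 for dlx5.L and dlx6.L (2.74% of genes had as many) and 20 for dlx5.S and dlx6.S (2.37%). dlx3.L and dlx4.L had 1, dlx3.S 5 and dlx4.S 3, around the median of 3, and 84.7% of genes had at least 1.

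**Figure D4:**
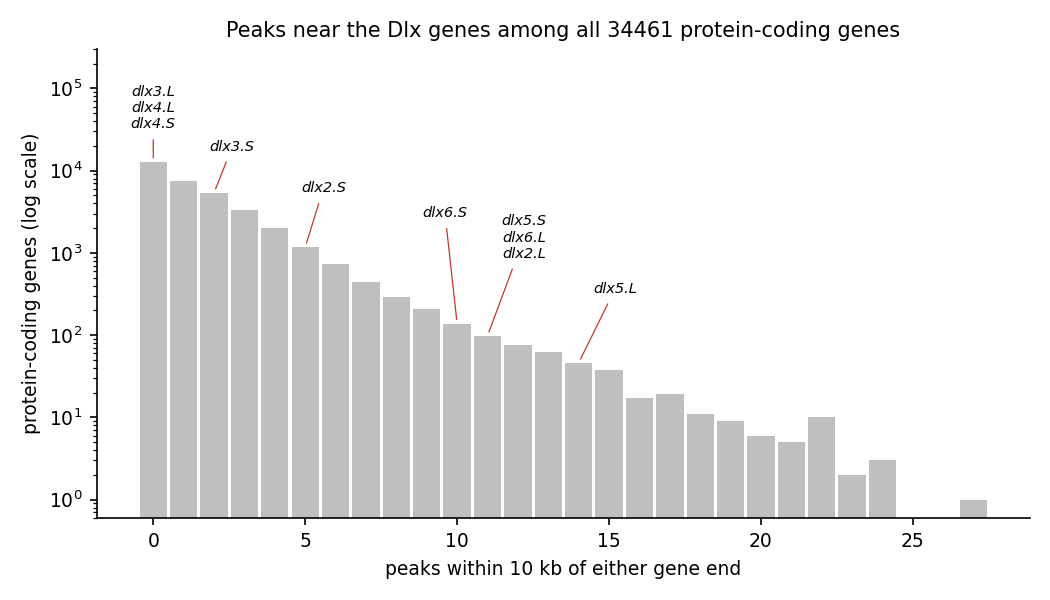
Number of protein-coding genes (vertical axis, log scale) by the number of peaks within 10 kb of either gene end (horizontal axis), with the 8 Dlx copies and dlx2.L and dlx2.S marked. dlx5 and dlx6 have 10 to 14 peaks, and dlx3 and dlx4 have 0 to 2.

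The contrast was as sharp at gene ends. Within 1 kb of an end there were 6 peaks at dlx5.L, 4 at dlx5.S, 3 at dlx6.L and 5 at dlx6.S, and 0 at each copy of dlx3 and dlx4. That 4 of 8 members had such a peak is near the 47.8% of all protein-coding genes, and the members divided by locus. At least 3 peaks at gene ends, which dlx5 and dlx6 had on both subgenomes, were found for 4.64% of genes. Distal peaks, more than 1 kb from any gene end, within 10 kb numbered 7 at dlx5.L, 7 at dlx5.S, 6 at dlx6.L, 5 at dlx6.S, 2 at dlx3.S and 0 at the other copies, and 35.9% of genes had at least 1.

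Among 7759 homeolog pairs, 83 (1.07%) had at least 19 peaks within 50 kb of both copies, dlx5 and dlx6 included. At least 11 peaks within 10 kb of both copies, as dlx5 had, were found in 0.528% of pairs. dlx4 was among the 14.6% of pairs with no peak within 10 kb of either copy, and dlx3 and dlx4 were among the 27.4% with none within 1 kb of an end of either.

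**Figure D5:**
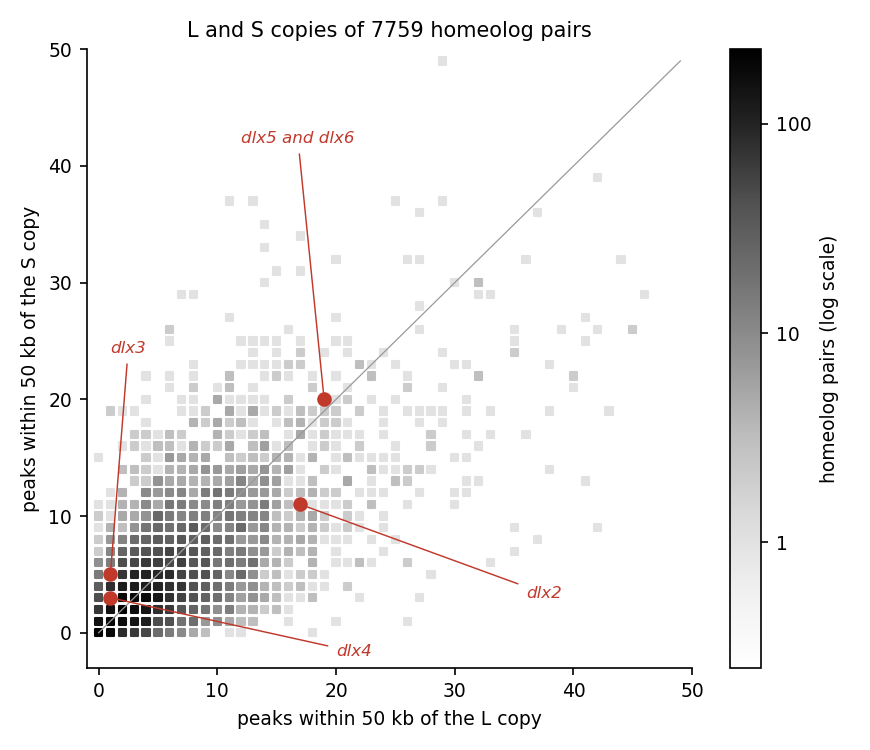
Peaks within 50 kb of the S copy (vertical axis) against those within 50 kb of the L copy (horizontal axis) for 7759 homeolog pairs, shaded by the number of pairs (log scale), with the Dlx pairs in red and equal counts on the grey line. dlx5 and dlx6 share a point at 19 and 20 near the line, dlx2 is at 17 and 11, and dlx3 and dlx4 are at 1 and 5 and at 1 and 3.

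Leaving out dlx6, which shares many of its peaks, the pairs most like dlx5 in their counts within 1, 10 and 50 kb were those of not, which encodes a homeodomain factor of the organizer and notochord, and zic1, a zinc finger gene of the neural plate. The summed absolute difference over the 6 counts was 6 for not, whose L copy had 12 and S copy 11 peaks within 10 kb, and 10 for zic1, with 14 and 12. akr7a2 and ier5 followed at 11. tbx3, which encodes a T-box repressor, aldoa, cbx5 and hnrnpa1 were tied at 12. This likeness is one of counts over 3 nested windows in pooled libraries.

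The remaining Dlx gene in the table, dlx2, fell between the loci in its peaks within 50 kb, and nearer to its ends it was within or below the range of dlx5 and dlx6. No gene of the table used here has the symbol dlx1. dlx2.L, at 9_10L:76275248 to 76277198, had 11 peaks within 10 kb and 17 within 50 kb. dlx2.S, at 9_10S:66786461 to 66789749, had 5 and 11. Within 1 kb of an end there were 4 and 3. As many peaks within 10 kb as dlx2.L were found for 1.17% of genes, and as many as dlx2.S for 9.83%. dlx2 thus shared with dlx5 and dlx6 at least 2 end peaks at each copy, which 13.2% of homeolog pairs had. It lies on the same chromosomes as dlx3 and dlx4, but far from them.

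Other transcription factor genes of the ectoderm gave a wide range. The list held 20 genes such as msx1, gata2, tfap2a, id3 and grhl3, several of which BMP signals regulate, and 38 copies were found. Of these, 28 (73.7%) had an end peak, where 47.8% of all genes do. The median number of peaks within 50 kb was 10.5 (0 to 26), against 3 over all genes. gata2.L, of a factor of ventral ectoderm and blood, had 26, with 16 within 10 kb. ventx1.2.S, of a ventral homeodomain repressor, had 21, but 0 within 10 kb. The other ventx copies on 7S, ventx1.1.S, ventx2.1.S and ventx2.2.S, had 19, 19 and 20. A peak near several listed genes was counted for each of them, also in the median. At the lower end grhl2.L and tp63.L, of regulators of the epidermis, had 0. dlx5 and dlx6 had more peaks within 50 kb than the median of this list on both subgenomes, while dlx3 and dlx4 had fewer.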

How the data were processed

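ATAC-seq libraries of stage 8 and stage 9 animal caps were transposed for 1 h and amplified for 12 cycles, per the labels. The authors' pipeline, as the methods and the submitters' processing notes give it, aligned reads to the v10.1 assembly (Bowtie2 2.4.2), discarded alignments of low mapping quality, merged each pair to its fragment, combined all stage 9 libraries, retained sub-nucleosomal fragments and ran MACS2 2.2.7.1 with no-antibody CUT&RUN as control; bedtools 2.30.0 is also named. The control is another assay, so cutting preferences of Tn5 are not removed. In the deposited list, fold enrichment is the ratio of coverage to background at the summit, with a pseudocount of 1 on both. Its other columns hold −log10 of the p-value and of the q-value, a score (10 times −log10 q) and the summit offset, all as the authors computed them. Stage 8 and single libraries were not analysed here.

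Fragments and background at each summit were computed by inverting fold enrichment and −log10 p together (Poisson tail, relative tolerance 0.0001). All 45 peaks of the Dlx loci had 1 solution, and 1 peak on the chromosomes had none. Counting and inversion were tested on simulated data. Genes came from a RefSeq table of the same assembly, without strand or exons. Homeolog pairs were genes with a single .L and a single .S copy on matching chromosomes. Chromosome length was the last annotated gene or peak. Shares have 95% Wilson intervals and fragment numbers exact Poisson intervals. Named were all members, the 3 strongest peaks per locus, peaks at gene ends or between genes, neighbours, dlx2, list extremes and the 5 pairs most like dlx5 with ties. The members and lists were chosen with earlier results of these data known. Python 3.11.15, numpy 2.4.6, pandas 2.3.3 and scipy 1.17.1 were used.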

Additional observations from a re-analysis of the deposited data

How the results depend on the processing

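No paired analysis was possible because the stage 9 libraries were pooled before peaks were called and stage 8 has no peak list here, and for the same reason no replicate could be left out. The main shares and the matched positions were recomputed under 30 alternatives. Of these, 20 stayed within the 95% interval of the main share (for matched positions, within 1.5 times the count). Among them were all 8 for the share of L at dlx5/dlx6 (47.1% to 57.1%). Peaks nearest to a Dlx gene and windows of 25 kb and 100 kb gave the same 19 of 39 peaks there, so these could not move that share. The share of dlx5/dlx6 among the peaks of both loci rose to 95.1% for peaks nearest to a Dlx gene, 94.9% within 10 kb and 100% (7 of 7) with a −log10 q of at least 10, and was 70.9% within 100 kb, where peaks of kat7 and other neighbours enter. The share of L at dlx3/dlx4 was 0% for peaks nearest to a Dlx gene (0 of 2), for peaks of at least the median fold enrichment (0 of 3) and within 10 kb (0 of 2), and 43.8% (7 of 16) within 100 kb. With a −log10 q of at least 10 no peak was left there. The share of peaks within 1 kb of a member's end, 40% (18 of 45), was 20% within 500 bp. Matched positions, 7 in the report, numbered 3 at 100 bp and 12 at 500 bp. Depth limits the reading of dlx3 and dlx4: with a median of 9 fragments per peak and none under 5, weak accessibility there may not be listed.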
